A study of Homo sapiens with 6 samples.

Results

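The Ly6/uPAR family was followed through 8 of the 27605 genes in the expression table, namely LYPD3, CD177, LY6E, LY6K, CD59, LYPD1, LYPD6B and LY6D. They were chosen by gene name, for the Ly6 domain of their proteins and because LYPD3 was higher and CD177 was lower in these same libraries after ARHGEF2 knockdown. The values that chose them are therefore given as a description, with no p-value and no call for any of the 8. RNA was sequenced from HepG2, a human liver tumour cell line, carrying a lentiviral control hairpin (shNC, genotype given as WT, 3 libraries) or a lentivirus that knocks down ARHGEF2 (shARHGEF2, 3 libraries). ARHGEF2 is an exchange factor that loads the small GTPase RhoA with GTP. The number of hairpins is not given in the sources used here, and nothing says that the libraries came from separate cultures, so p-values measure the spread between these libraries, which may be technical. With 1 control condition and 1 knockdown condition, an effect of lower ARHGEF2 and any other effect of the hairpin cannot be told apart.

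ARHGEF2 itself was read first. It stood at 13.0, 14.4 and 13.9 FPKM (fragments scaled to transcript length and to the mapped fragments of the library) in shNC cells and at 4.25, 4.0 and 4.82 FPKM in shARHGEF2 cells, for a log2 change of -1.47 (SE 0.11, adjusted p = 0.00244 in limma, n = 3 per group), while an exact permutation test of 3 against 3 libraries cannot go below 0.1 and gave 0.1. That call was lost with a replicate block (adjusted p = 0.0716) and with no filter on low values (adjusted p = 0.0701). The liver label was not borne out by hepatocyte markers: 9 of 18 were in the table, AFP reached at most 0.0703 FPKM, HNF4A at most 0.0956, SERPINA1 at most 0.0103 and APOA1 at most 0.248, and vitronectin (VTN) alone passed the filter, a 6-library mean of 0.5 FPKM or more. The cells are called HepG2 here because the labels do so. Library depth, estimated from the spacing of low values, lay between 20097000 and 23101000 read pairs.

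Proteins of the Ly6/uPAR family are built from a small domain whose finger-like loops are held together by disulfide bonds, and most of them are tied to the outer face of the plasma membrane by a glycosylphosphatidylinositol (GPI) lipid anchor. The family is named after the Ly6 antigens of mouse lymphocytes and after uPAR (PLAUR), the receptor that holds urokinase at the cell surface. LYPD3 is a structural relative of PLAUR known from stratified squamous epithelium and from carcinomas. CD177 is a neutrophil surface antigen that displays proteinase 3. CD59 blocks the last step of complement attack on the cell's own membrane. LY6E, LY6K and LY6D are small Ly6 proteins, of which LY6K is best known from the testis, and LYPD1 and LYPD6B belong to the branch that modulates nicotinic acetylcholine receptors.

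All 8 genes carried the Gene Ontology term for an anchored component of the membrane in the deposited annotation, a term held by 100 of the 27605 genes (0.362%). Their coding sequences were rich in cysteine codons. The share was 5.51% of 345 codons in LYPD3, 6.42% of 436 in CD177, 10.0% of 140 in LYPD1, 6.31% of 206 in LYPD6B, 7.69% of 130 in LY6E, 6.71% of 164 in LY6K, 7.87% of 127 in LY6D and 8.66% of 127 in CD59, against a median of 2.05% over 19506 genes with a complete coding sequence. Near the end of a Ly6 domain, a pair of neighbouring cysteine codons is followed by 4 other codons, a cysteine codon and an asparagine codon. This run was present in 7 of the 8 genes and in 52 of the 19506 genes (0.267%). The exact run was not found in CD177, and looser forms of it were not searched for. Some genes that carry it are shown because the run is shared by abundant and scarce genes alike, with PLAUR for comparison. They are coding strands, 5′ to 3′, from GENCODE 29 transcripts on GRCh38, with cysteine codons in capitals.
LYPD3: TGTTGCcaggggtcccgcTGTaac
LYPD1: TGCTGCaacacccctcttTGTaac
LYPD6B: TGCTGTgaaggaatgatcTGCaat
CD59: TGCTGCaagaaggacctgTGTaac
PLAUR, first copy: TGCTGCaacaccaccaaaTGCaac
PLAUR, second copy: TGCTGTactaaaagtggcTGTaac

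The LYPD3 run began at codon 215, in exon 5 of 5 of its transcript, at chr19:43461726-43461749 on the minus strand. The LYPD1 run began at codon 100, in exon 3 of 3, at chr2:132646150-132646173 on the minus strand. In LYPD6B it began at codon 158, in exon 7 of 7, at chr2:149214558-149214581 on the plus strand. In CD59 it began at codon 88, in exon 4 of 4, at chr11:33710228-33710251 on the minus strand. PLAUR held 2 copies on the minus strand, at codon 192 in exon 5 of 7 (chr19:43655449-43655472) and at codon 287 in exon 7 of 7 (chr19:43649016-43649039). The cysteine and asparagine positions were fixed by the search, and the codons between them differed among the genes shown.

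Transcript levels divided the 8 genes into an abundant and a scarce set of 4 each. FPKM is scaled to transcript length, so levels can be set beside each other. In shNC cells LYPD3 stood highest at 67.5 FPKM ± 4.09 (SD, n = 3), followed by LY6E at 52.9 ± 10.7, LY6K at 44.9 ± 1.79 and CD59 at 12.2 ± 1.43. LYPD3 lay above LY6E in every shNC library, LY6E and LY6K overlapped, and CD59 lay below both. In shARHGEF2 cells the order was the same and no neighbours in it overlapped. The scarce genes were CD177 at 0.589 FPKM ± 0.0354, LY6D at 0.114 ± 0.0755, LYPD6B at 0.0872 ± 0.0486 and LYPD1 at 0.071 ± 0.0634 in shNC cells. CD177 stood above the other genes of that set in every shNC library, and those overlapped one another. In shARHGEF2 cells CD177 overlapped all of them.

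**Figure D1:**
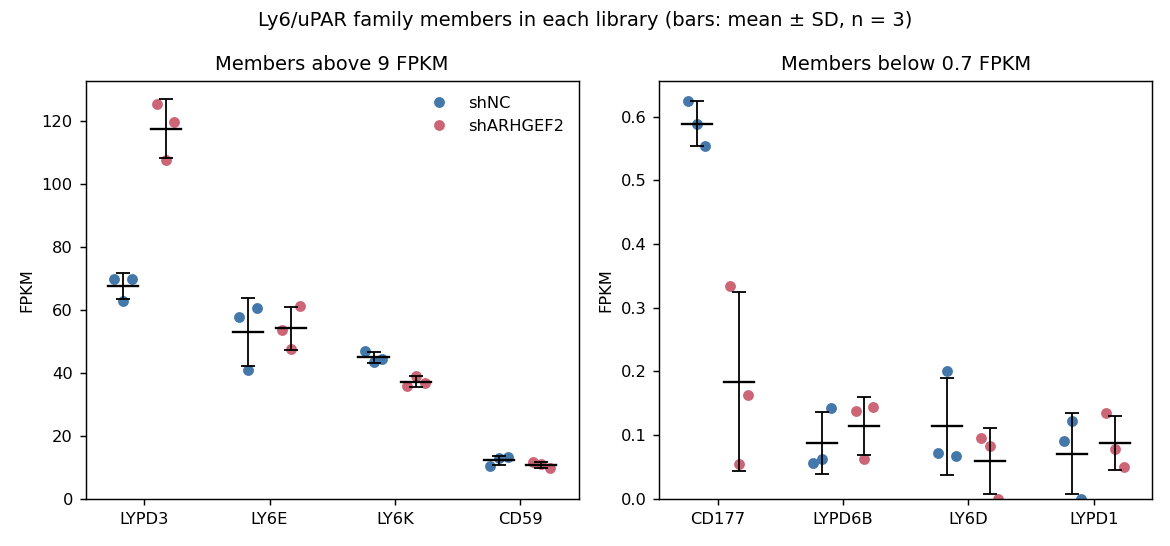
FPKM (vertical axes, linear, from 0) of the 8 genes in each library, with shNC libraries in blue and shARHGEF2 libraries in red. Horizontal lines are means of 3 libraries and bars are SD. LYPD3 was at 62.8 to 69.9 in shNC and 107 to 125 in shARHGEF2 cells, CD177 was at 0.554 to 0.625 and 0.0551 to 0.333, and LY6K was at 43.6 to 47.0 and 35.8 to 39.0, while the libraries of the other 5 genes overlapped.

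LYPD3 (ENSG00000124466, chromosome 19, 43460787 to 43465660 on GRCh38, minus strand) was measured at 69.9, 62.8 and 69.9 FPKM in shNC replicates 1 to 3 and at 125, 107 and 120 FPKM in shARHGEF2 replicates 1 to 3. Every shARHGEF2 library was above every shNC library, and replicate 2 was the lowest in both groups. The means were 67.5 ± 4.09 and 118 ± 9.22 (SD, n = 3), a ratio of 1.74 in FPKM and a log2 fold change of 0.79 (SE 0.09) on the log2(FPKM + 1) scale. No other annotated gene overlapped it. With 1 library left out the log2 fold change lay between 0.74 and 0.85.

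CD177 (ENSG00000204936, chromosome 19, 43353659 to 43363172, plus strand) was measured at 0.625, 0.588 and 0.554 FPKM in shNC replicates 1 to 3 and at 0.333, 0.0551 and 0.163 FPKM in shARHGEF2 replicates 1 to 3. All 3 shARHGEF2 libraries were below the shNC libraries, and they were spread more widely. The means were 0.589 ± 0.0354 and 0.184 ± 0.14, a ratio of 0.312. These values rest on few reads. With the 2222 nt of its 1 listed transcript and the estimated depths, they corresponded to about 32.1, 29.4 and 24.7 read pairs in shNC libraries and about 15.1, 2.7 and 8.3 in shARHGEF2 libraries. The depths were estimated without intervals, so these counts are rough. Its mean over the 6 libraries was under 0.5 FPKM, so the gene did not enter the fit. The log2 fold change was -0.43 with a pseudocount of 1 and -1.40 with a pseudocount of 0.1. CD177P1, a pseudogene copy that could share its reads, was listed at 0 in 5 libraries and at 0.029 FPKM in shARHGEF2 replicate 3. AC005392.3, annotated opposite CD177, was not analysed here.

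LY6K (ENSG00000160886, chromosome 8, 142700111 to 142705127, plus strand) was measured at 47.0, 43.6 and 44.3 FPKM in shNC libraries and at 35.8, 39.0 and 36.8 FPKM in shARHGEF2 libraries. The groups did not overlap. The ratio of the means was 0.828 and the log2 fold change was -0.27 (SE 0.08). LNCOC1, on the opposite strand, did not exceed 0.115 FPKM.

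LY6E (ENSG00000160932, chromosome 8, 143017982 to 143023832, plus strand) is a broadly expressed, interferon-inducible member. It was measured at 57.6, 40.8 and 60.5 FPKM in shNC libraries and at 53.5, 47.5 and 61.3 FPKM in shARHGEF2 libraries. The groups overlapped over nearly their whole range, with replicate 2 lowest in each. The ratio was 1.02 and the log2 fold change 0.04 (SE 0.16), which became -0.13 to 0.15 with 1 library left out.

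CD59 (ENSG00000085063, chromosome 11, 33703010 to 33736491, minus strand) was measured at 10.6, 12.9 and 13.2 FPKM in shNC libraries and at 11.7, 11.0 and 9.68 FPKM in shARHGEF2 libraries. The groups overlapped, at a ratio of 0.883 and a log2 fold change of -0.16 (SE 0.12). AL049629.2, which overlaps CD59 on the same strand and could share reads with it, was listed at 0.598 to 2.186 FPKM in shNC and 2.369 to 5.416 FPKM in shARHGEF2 libraries. Its part in the CD59 values was not tested.

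The 3 scarcest genes stayed at or below 0.201 FPKM in every library. LY6D (ENSG00000167656, chromosome 8, 142784880 to 142786592, minus strand) was at 0.0728, 0.201 and 0.0677 FPKM in shNC and 0.0961, 0.083 and 0 in shARHGEF2 libraries. LYPD6B (ENSG00000150556, chromosome 2, 149038107 to 149215262, plus strand) was at 0.0557, 0.0626 and 0.143 FPKM in shNC and 0.137, 0.0621 and 0.145 in shARHGEF2 libraries. LYPD1 (ENSG00000150551, chromosome 2, 132644853 to 132671579, minus strand) was at 0.0911, 0.122 and 0 FPKM in shNC and 0.134, 0.0789 and 0.0501 in shARHGEF2 libraries. All 3 overlapped between the groups, and none of them entered the fit. LYPD1 lies opposite GPR39, which was at 1.387 to 2.653 FPKM.

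Of the 8 genes, 4 passed the filter and entered the fit over 12291 genes. The fit called 34 of these genes at an adjusted p under 0.05 in limma (0.277% of genes tested, 0.195% higher and 0.0814% lower), and calls are not read for the 8, since the same contrast chose them. An unadjusted p under 0.05 in limma was found for 1678 of the 12291 genes. The groups did not overlap for 2 of the 4, LYPD3 and LY6K, where 20.5% of all genes tested did not overlap (11.3% higher, 9.17% lower), and for CD177 among the genes under the filter, where 7.55% did not overlap and 3.71% were lower. Genes under the filter include some at 0 in most libraries, and the share among genes at the level of CD177 was not computed. The median log2 fold change of the 4 was -0.06, against -0.002 over all genes tested. These counts and the median are a description of genes picked for their values.

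Of 27 further family genes, 8 were in the table, 3 passed the filter and 0 were called in limma. Of the 3, 1 had an unadjusted p under 0.05 in limma, beside 1678 of all 12291 genes tested. PSCA, an antigen first described on prostate cells, was the most abundant of the family in shNC cells at 99.3, 86.7 and 88.9 FPKM, and was at 93.1, 84.7 and 89.8 FPKM in shARHGEF2 cells. Its groups overlapped, with a log2 fold change of -0.04 (SE 0.09, adjusted p = 0.908 in limma) that turned to 0.02 without shNC replicate 1. PLAUR was at 47.4, 41.0 and 49.8 FPKM in shNC cells and at 64.3, 65.2 and 63.4 FPKM after knockdown. Its groups did not overlap, beside 11.3% of all genes tested that were higher without overlap. Its log2 fold change of 0.48 (SE 0.10, adjusted p = 0.11 in limma) did not pass the threshold. LYPD6, which acts on nicotinic receptors and Wnt signalling, was at 2.23 ± 0.258 and 2.0 ± 0.359 FPKM (log2 fold change -0.11, SE 0.13, adjusted p = 0.787 in limma, and -0.05 to -0.21 with 1 library left out). The other 5, LY6G5B, LY6G6C, LYPD2, ACRV1 and PINLYP, did not exceed 0.548 FPKM in any library.

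**Figure D2:**
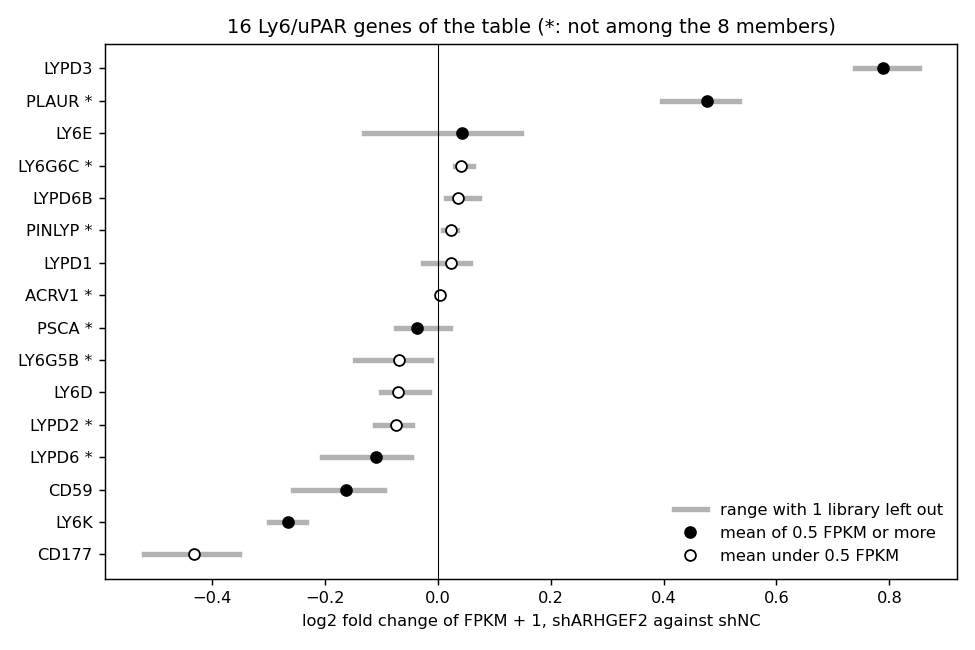
Log2 fold change of FPKM + 1 in shARHGEF2 against shNC cells (horizontal axis) for the 16 Ly6/uPAR genes of the table, ordered by value, with an asterisk for genes outside the 8. Filled points had a mean of at least 0.5 FPKM and grey bars span the values with 1 library left out. LYPD3 (0.79) and PLAUR (0.48) lie to the right of the rest, LY6K (-0.27) and CD177 (-0.43) lie to the left, and the bars of LY6E, LYPD1 and PSCA cross 0.

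Summed over the 16 family genes of the table, the level was 335, 292 and 330 FPKM in shNC cells and 387, 358 and 383 FPKM in shARHGEF2 cells. For the 8 genes alone it was 186, 161 and 189 against 227, 205 and 228 FPKM. Both sums contain LYPD3, which was chosen for being higher. Without LYPD3 the other 15 family genes summed to 265, 229 and 260 FPKM in shNC and 261, 250 and 264 FPKM in shARHGEF2 cells, and the other 7 of the 8 to 116, 98.2 and 119 against 102, 97.8 and 108 FPKM. The groups overlapped in both sums once LYPD3 was left out. LYPD3 made up 20.9%, 21.5% and 21.2% of the family sum in shNC libraries and 32.4%, 30.0% and 31.2% in shARHGEF2 libraries. PSCA made up a larger share than LYPD3 in every shNC library, at 26.9% to 29.7%, and a smaller one in every shARHGEF2 library, at 23.4% to 24.1%. LY6K was at 13.4% to 14.9% in shNC and 9.26% to 10.9% in shARHGEF2 libraries, and PLAUR was at 14.1% to 15.1% and at 16.5% to 18.2%. These are shares of 1 sum, so a larger share of LYPD3 lowers the others by construction.

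**Figure D3:**
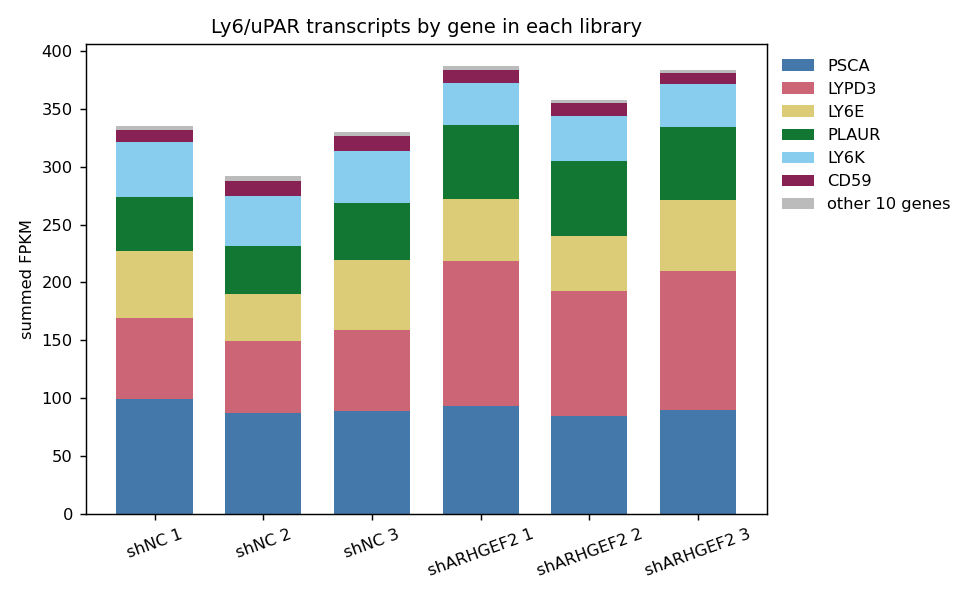
Summed FPKM (vertical axis, from 0) of the 16 Ly6/uPAR genes in each library, divided by gene. The sum was 292 to 335 in the shNC and 358 to 387 in the shARHGEF2 libraries (229 to 265 and 250 to 264 without LYPD3), and the red LYPD3 segment spans 62.8 to 69.9 FPKM in shNC and 107 to 125 FPKM in shARHGEF2 libraries, while the PSCA segment at the base stayed between 84.7 and 99.3.

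LYPD3, CD177 and PLAUR all lie on chromosome 19. The CD177 gene ends 97.6 kb before the LYPD3 gene. The near edge of PLAUR, its 3′ end since it is on the minus strand, lies 180.4 kb beyond the LYPD3 gene. Among the 5 table genes on each side of LYPD3 and of CD177 there were 11 different genes outside the 8. Of these 4 passed the filter and 0 were called in limma, beside 0.277% of all genes tested. With so few genes and so low a share, 0 calls says little about the region. PHLDB3, the next gene beyond LYPD3, was at 6.51, 5.6 and 8.2 FPKM in shNC cells and at 9.35, 9.59 and 9.27 FPKM in shARHGEF2 cells. Its groups did not overlap, beside 11.3% of all genes tested that were higher without overlap. The log2 fold change was 0.43 (SE 0.13, unadjusted p = 0.0109 and adjusted p = 0.222 in limma). AC005392.2, a long non-coding RNA with its start 22.2 kb before that of CD177, was at 4.17 to 6.45 FPKM in shNC and 2.62 to 4.42 FPKM in shARHGEF2 cells (log2 fold change -0.40, SE 0.19, adjusted p = 0.407 in limma, -0.23 without shNC replicate 3 and -0.26 without shARHGEF2 replicate 2). ETHE1, a mitochondrial sulfur dioxygenase, had a log2 fold change of 0.05 (SE 0.10, adjusted p = 0.889 in limma), and XRCC1, a scaffold of DNA single-strand break repair, one of 0.06 (SE 0.09, adjusted p = 0.831 in limma). The remaining neighbours did not exceed 0.469 FPKM.

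**Figure D4:**
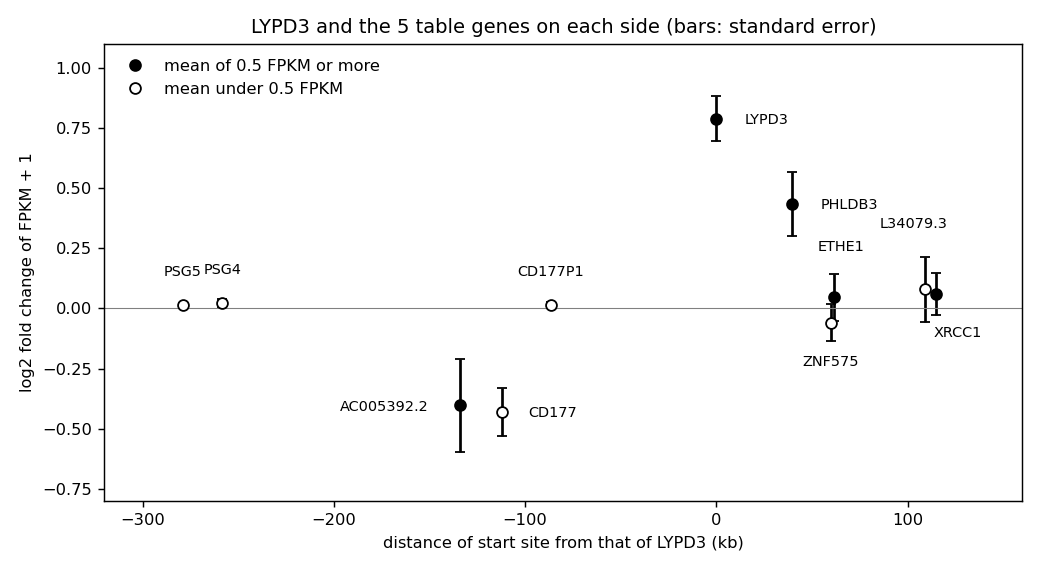
Log2 fold change of FPKM + 1 in shARHGEF2 against shNC cells (vertical axis) of LYPD3 and the 5 table genes on each side, by distance between start sites in kb along the chromosome (horizontal axis). Bars are standard errors, from limma for filled points and from the 6 libraries for open points with a mean under 0.5 FPKM. LYPD3 (0.79) and PHLDB3 (0.43) lie above 0, AC005392.2 (-0.40) and CD177 (-0.43) lie below, and the other genes lie between -0.06 and 0.08.

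The machinery that makes and attaches the GPI anchor was read from 35 genes, all in the table. Of these 31 passed the filter and 0 were called in limma. An unadjusted p under 0.05 in limma was found for 6 of the 31, beside 1678 of all 12291 genes tested. Their log2 fold changes were above 0 for 18 and below 0 for 13, with a median of 0.03 against -0.002 over all genes tested, and the groups did not overlap for 5 with higher and 4 with lower values in shARHGEF2 cells, beside 11.3% and 9.17% of all genes tested. The 3 with the largest differences did not pass. PIGM, a mannosyltransferase of the pathway, was at 1.14, 1.58 and 0.623 FPKM in shNC and 0.406, 0.38 and 0.622 FPKM in shARHGEF2 cells (log2 fold change -0.50, SE 0.17, adjusted p = 0.255 in limma). PIGV, another mannosyltransferase, had a log2 fold change of -0.47 (SE 0.13, adjusted p = 0.181 in limma), and PGAP2, which acts in remodelling the lipid of the anchor, one of -0.38 (SE 0.20, adjusted p = 0.463 in limma) that was -0.17 without shNC replicate 2 and -0.62 without shNC replicate 3. Among subunits of the transamidase that joins anchor and protein, GPAA1 and PIGK had log2 fold changes of 0 (SE 0.11) and 0.02 (SE 0.17). PIGU had one of 0.08 (SE 0.11), PIGS one of 0.17 (SE 0.08) and PIGT one of 0.24 (SE 0.11). PIGS and PIGT were higher in shARHGEF2 cells without overlap (adjusted p = 0.426 and 0.377 in limma).

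Complement regulators were read as the companions of CD59. Of 13 genes 11 were in the table, 6 passed the filter and 0 were called in limma. Of the 6, 1 had an unadjusted p under 0.05 in limma, beside 1678 of all 12291 genes tested. Of the 6, 5 had log2 fold changes above 0 (median 0.20, against -0.002 over all genes tested), and 3 did not overlap between the groups, all with higher values in shARHGEF2 cells, where 11.3% of all genes tested were higher without overlap. CD55, a GPI-anchored protein that speeds the decay of complement convertases, was at 90.4, 100 and 107 FPKM in shNC cells and at 115, 147 and 131 FPKM in shARHGEF2 cells (log2 fold change 0.40, SE 0.11, adjusted p = 0.181 in limma). CD46, a cofactor for the cleavage of deposited complement, had a log2 fold change of 0.40 with overlapping groups (SE 0.22, adjusted p = 0.475 in limma), which was 0.17 without shARHGEF2 replicate 2 and 0.26 without shNC replicate 1. SERPING1, the inhibitor of the first complement component, was at 3.33 to 3.67 and 3.86 to 4.66 FPKM (log2 fold change 0.21, SE 0.11, adjusted p = 0.463 in limma). CD59 stood apart from CD55 in level, at about 12.2 against 99.1 FPKM in shNC cells.

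Known or proposed partners of LYPD3, CD177 and LY6K, among them laminin and integrin chains, proteinase 3 and PECAM1, came to 13 genes. Of these 10 were in the table, 6 passed the filter and 0 were called in limma. Of the 6, 1 had an unadjusted p under 0.05 in limma, beside 1678 of all 12291 genes tested. The median log2 fold change was 0.19, against -0.002 over all genes tested. The groups did not overlap for 2 of the 6, LAMB3 and PECAM1, each higher in shARHGEF2 cells, beside 11.3% of all genes tested. LAMB3, a chain of the laminin beneath epithelia, was at 93.2, 92.2 and 131 FPKM in shNC cells and at 165, 147 and 155 FPKM after knockdown. The groups did not overlap, and the log2 fold change of 0.57 (SE 0.14) had an adjusted p of 0.136 in limma, which became 0.0264 with 0.74 when shNC replicate 3 was left out. ITGB4, the integrin chain of hemidesmosomes, was at 36.6 to 51.8 and 47.0 to 59.8 FPKM (log2 fold change 0.32, SE 0.14, adjusted p = 0.375 in limma). PRTN3, which encodes proteinase 3, was at 2.34 to 4.13 and 2.83 to 4.12 FPKM (log2 fold change 0.20, SE 0.19, adjusted p = 0.713 in limma, from 0.08 without shNC replicate 3 to 0.39 without shNC replicate 1).

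LYPD3 and CD177 are known from other cell types than hepatocytes, and markers of those types were read beside them. Of 21 markers of stratified squamous epithelium 15 were in the table, 6 passed the filter and 0 were called in limma. Of the 6, 3 had an unadjusted p under 0.05 in limma, beside 1678 of all 12291 genes tested. All 6 had log2 fold changes above 0 (median 0.18, against -0.002 over all genes tested). The groups did not overlap for 3 of them, SFN, KRT15 and KRT10, each higher in shARHGEF2 cells, beside 11.3% of all genes tested. Their list summed to 719 to 1050 FPKM in shNC and 903 to 1020 FPKM in shARHGEF2 libraries, most of it KRT17, a keratin of wounded and stressed epithelia, at 477 to 757 and 553 to 702 FPKM. SFN, an epithelial 14-3-3 protein, was at 207 to 250 and 274 to 305 FPKM (log2 fold change 0.33, SE 0.09, adjusted p = 0.184 in limma). Among the basal markers KRT5 was at most 0.137 FPKM and TP63 at most 0.0227 FPKM, while KRT14 was at 0.641 to 1.14 in shNC and 0.959 to 1.32 FPKM in shARHGEF2 libraries and KRT15 at 0.338 to 0.615 and 0.633 to 0.891 FPKM, without overlap (log2 fold change 0.31, SE 0.12, adjusted p = 0.321 in limma). Of 16 neutrophil markers 8 were in the table and 3 passed the filter. S100A9, a calcium-binding protein of myeloid cells that epithelial cells also make, rose from 6.13, 6.47 and 6.79 FPKM to 13.2, 15.2 and 13.8 FPKM (log2 fold change 1.01, SE 0.10, adjusted p = 0.0114 in limma). The list summed to 9.63 to 11.3 FPKM in shNC and 18.5 to 19.4 FPKM in shARHGEF2 libraries, in the opposite direction to CD177. Most of this sum was S100A9. The S100A9 call was lost with a replicate block (adjusted p = 0.124 in limma), with no filter (0.178) and without shARHGEF2 replicate 3 (0.0812). S100A8, the partner of S100A9, was at 0.26 to 0.599 and 0.674 to 1.06 FPKM (log2 fold change 0.37, SE 0.13, adjusted p = 0.266 in limma), PRTN3 passed the filter at the values above, and ELANE was at most 0.479 FPKM. CSF3R was at most 0.00601, FCGR3B at most 0.0663, LYZ at most 0.0564 and LTF at most 0.24 FPKM. PRTN3, ELANE, CSF3R, FCGR3B, LYZ and LTF overlapped between the groups. The part of either list in the LYPD3 and CD177 values was not tested.

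Among 10211 genes averaging 1 FPKM or more, the 5 whose pattern over the 6 libraries was nearest to that of LYPD3 were found by the root mean square distance between log2(FPKM + 1) values, each centred on its own mean. These were ENTPD2, an ectonucleotidase (distance 0.080), SYNGR3, a synaptic vesicle protein (0.082), KCNH3, a potassium channel (0.094), SNAI3, a zinc finger protein of the Snail family (0.096) and VASN, a membrane protein that binds TGF-beta (0.097), where LYPD3 itself varied about its mean by 0.403. VASN, the most abundant of them, was at 27.8 FPKM ± 1.11 in shNC and 46.0 ± 3.59 in shARHGEF2 cells (SD, n = 3). Nearest to CD177 were PATZ1, a zinc finger protein (0.043), CTTN, the actin-binding protein cortactin (0.056), ASL, an enzyme of the urea cycle (0.056), C7orf50 (0.060) and SCLY, selenocysteine lyase (0.063), where CD177 varied by 0.237. PATZ1 was at 8.53, 8.78 and 8.25 FPKM in shNC and 6.68, 5.3 and 6.33 FPKM in shARHGEF2 cells. The order of the 3 shARHGEF2 libraries matched that of CD177, with replicate 2 lowest, and the order of the shNC libraries did not. PATZ1 was picked for its nearness to CD177, which favours such a match. These likenesses rest on 6 libraries that share the knockdown contrast and their own depths, and are a description. They hold on the log2(FPKM + 1) scale, which understates changes of low genes. In FPKM the ratio was 0.312 for CD177 and 0.695 to 0.768 for its 5 nearest genes. It was 1.74 for LYPD3 and 1.66 to 3.01 for its 5. The order of the shARHGEF2 libraries in CD177 rests on a rough estimate of 15.1, 2.7 and 8.3 read pairs.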

How the data were processed

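The deposited table holds FPKM values of 27605 genes in 6 libraries, made by the authors from poly(A)-selected, strand-marked libraries with molecular identifiers. The submitters' processing notes name cutadapt 1.9, HISAT2 2.0.4, UMI-tools, StringTie 1.3.4d, DESeq2, edgeR and hg19. The table has no coordinates. Of its 112516 listed transcripts 106543 (94.7%) were found in GENCODE 29, and positions are given from that annotation on GRCh38. Columns with the authors' own fold changes and p-values were not used.

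The 12291 genes averaging 0.5 FPKM or more were fitted on log2(FPKM + 1) with limma 3.58.1 (R 4.3.3), using a variance trend and robust estimation (statmod 1.5.0). This scale understates changes of low genes. P-values were adjusted over all 12291 genes by the Benjamini-Hochberg method with calls at an adjusted p under 0.05. No count test was run, since 35.0% to 37.3% of low values came within 0.1 of a whole read at the estimated depths of 20097000 to 23101000 pairs. These depths gave no intervals. In simulated data on the 12291 genes with 200 changed, 0 were called at a log2 change of 0.5, 155 at 1 (with 4 false calls) and 192 at 2 (with 5 false calls).

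Named genes are the 8 members, the other family genes and neighbours, genes of each list that were called or otherwise the 3 with the largest log2 fold change, and the 5 genes nearest in pattern to LYPD3 and CD177. GPAA1, PIGK, PIGU, PIGS, PIGT and the markers outside this rule, and sums without LYPD3, were added after their values were seen. The members and the lists were chosen with earlier results of these data known. The replicate numbers were not taken as pairs, and the labels do not say whether they are. Results were recomputed with each library left out, with a smaller pseudocount (0.1), with every gene above 0, with a filter of 1 FPKM in 3 libraries, after quantile normalization, without trend and robust variances, and with the replicate number as a block. A fit on values freed of their trend with GC content (loess, span 0.3) was added after seeing the data.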

Additional observations from a re-analysis of the deposited data

How the results depend on the processing

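The 34 genes called became 0 with a replicate block (1976 at an unadjusted p under 0.05 in limma, against 1678 in the main fit), 1 with no filter, 54 with at least 1 FPKM in 3 libraries, 19 with quantile normalization, 7 without trend and robust variances, and 6 to 102 with 1 library left out, the most without shNC replicate 3. ARHGEF2 kept its log2 fold change of -1.47 but lost its call with the block (adjusted p = 0.0716) and with no filter (adjusted p = 0.0701). With a pseudocount of 0.1 CD177 moved to -1.40, and the other scarce genes moved too. LY6D went from -0.07 to -0.43, LYPD6B from 0.04 to 0.20 and LYPD1 from 0.02 to 0.19. The 0 partner genes called became 0 to 1 (LAMB3) with 1 library left out. PSCA lay between -0.07 and 0.02 with 1 library left out, above 0 without shNC replicate 1, and ETHE1 between -0.03 and 0.11, below 0 without shNC replicate 2, and at -0.01 with the GC trend removed. The causes were not tested. Deviations of libraries with the same number correlated at 0.184, 0.159 and -0.105 over genes, and those with unlike numbers at -0.221 to 0.068. These values do not settle whether the numbers mark pairs. The main fit did not take them as pairs, and the block (0 calls) is given beside it. The lists of other family genes, GPI anchor genes and complement regulators had 0 calls in every fit run. The main fit called 0.277% of all genes tested and some fits called fewer, so 0 calls in such short lists does not show that they were unchanged. Across all settings, the median log2 fold change of the genes fitted moved by at most 0.036 from that of the main fit. LYPD1, LYPD6B, LY6D and CD177 were under the filter, and what difference could be seen at such levels was not tested.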
